A study of Caenorhabditis elegans with 32 samples.

Results

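A stretch of chromosome IV of Caenorhabditis elegans holds 1077 transcripts whose mRNA level could not be estimated in most of the deposited tables, and 2 sources of values remain for them. The stretch is 1 locus entry that runs, in the tables' own coordinates, between positions 380017 and 4526957 of chromosome IV. The sources used here do not give the genome build. Its members are the RefSeq transcripts with the status HIDATA in all 4 status columns of the glp-1 control and met-1 mutant tables, 1077 of 46971 transcripts (2.29%). In the output of Cuffdiff, HIDATA marks a locus with too many fragments to be fitted, so a value of 0 there is a failed estimate and says nothing of expression.

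The series holds 20 mRNA libraries in 10 groups of 2 and 12 chromatin immunoprecipitation samples, which were not analysed here. It compares ages and asks how met-1, the gene of a histone H3 lysine 36 methyltransferase, relates to expression. All groups used here are whole animals carrying the temperature-sensitive allele glp-1(e2141), hatched from embryos of stocks kept at 16 °C, grown at 25 °C, where most of the germline is lacking, and taken as day 2 or day 12 adults. The first group pair is untreated glp-1(e2141) at day 2 and day 12, grown in parallel with the chromatin samples. The second source is glp-1(e2141) labelled L4440, a name that usually means the empty feeding vector of RNA interference, at day 12. The culture protocol, given in 1 wording for all samples, names E. coli OP50 as food with a second feeding of day 12 animals on day 4, and does not describe the feeding of L4440 animals separately. The labels do not say whether the 2 libraries of a group came from separate cultures.

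The left arm of chromosome IV is a mix of widely used genes and of gene families known for local duplication. Ribosomal protein, vacuolar ATPase and mitochondrial enzyme genes lie there beside clusters of C-type lectins, secreted proteins with a carbohydrate-binding fold of which many respond to bacteria. Invertebrate-type lysozymes, which cleave the bacterial cell wall, nuclear hormone receptors and chemoreceptors lie there too. With age, worm transcriptomes are known for change in genes of immunity, cuticle and energy metabolism. Because whole animals were sequenced, fewer cells of a type and less RNA per cell cannot be told apart in any value given here.

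Of the 1077 members, 842 have coding and 235 non-coding identifiers. The non-coding members were 176 of the class ncRNA, 27 piRNAs, 16 snoRNAs, 10 lncRNAs, 3 antisense RNAs, 2 snRNAs and 1 with no match in RefSeq. The locus entry spans 4.15 Mb and is the longest of 23625 entries in the control table, whose median entry is 1056 bp and holds 1 transcript. It is shared by 1091 transcripts, of which 14 are not members because all 4 of their status columns read OK. Those 14 were listed at 0 in all 4 values as well, and 2 of them stood above 0 in the L4440 day 12 libraries. The second longest entry, on chromosome II, spans 1.84 Mb with 597 transcripts, and 0 of those had a status other than OK. In all, 1112 transcripts had such a status, and the 35 that are not members did not have HIDATA in all 4 columns.

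The failed estimates reached beyond the tables that carry a status. The members were listed at 0 in all 4 values of the control and mutant tables and in 6 of the 8 libraries of the RNA interference table, which has no status column. In those 10 value sets between 42.9% and 54.6% of the other transcripts stood above 0. In the 2 L4440 day 12 libraries 557 and 564 members were above 0, against 47.6% and 43.7% of the other transcripts. The isoform table of the untreated animals listed 198 members at 10 FPKM or more at both ages. All 198 were listed at 0 in the 6 other RNA interference libraries, so these zeros do not describe the animals. FPKM scales the fragments of a transcript to its length and to the mapped total of the library. No comparison of met-1 mutants or met-1 RNA interference with their controls can be made for any member.

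Change with age was read from the isoform table, which holds 545 members, all coding, of 489 genes. Each age has a single FPKM value made from both libraries, which leaves no measure of spread, and the q-value in the authors' deposited table is the only test. "Rose" and "fell" below refer to a q-value under 0.05 in the authors' deposited table. By that rule 59 members rose (10.8%, against 13.4% of all 16422 transcripts) and 119 fell (21.8%, against 18.8%). In either direction 178 members were called (32.7%, against 32.3%), a share near that of the whole table. The median change, on the log2(FPKM + 1) scale used for all changes here, was -0.13 over the members and -0.05 over all transcripts. The middle 80% of members lay between -1.16 and 0.64, and of all transcripts between -1.05 and 0.75. On the rest of chromosome IV 13.9% of 1793 transcripts were higher and 18.2% lower, with a median of 0.00. The X chromosome had shares close to those of the stretch, 10.9% higher and 23% lower with a median of -0.16.

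Large changes were more often falls than rises, in the stretch as in the whole table. Among called members that reached 1 FPKM at one age or more, 73 fell by 2-fold or more (13.4% of the 545, against 10.8% of all transcripts) and 30 rose as much (5.5% against 6.89%). By 10-fold or more 19 fell (3.49% against 1.44%) and 6 rose (1.1% against 0.986%). The smallest q-value in the authors' deposited table, 9.44e-21, is shared by 732 transcripts, of which 28 are members, 23 lower and 5 higher at day 12. At the limit of the call, the collagen gene col-109 and the F-box gene fbxb-75 lay just inside, with q = 0.0458 and 0.0499 in the authors' deposited table. K11H12.3 and vamp-7, a vesicle fusion protein gene, lay just outside it with q = 0.0525 and 0.0555 in the authors' deposited table. The plot of day 2 against day 12 levels shows most members along the diagonal and a longer tail of falls.

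**Figure D1:**
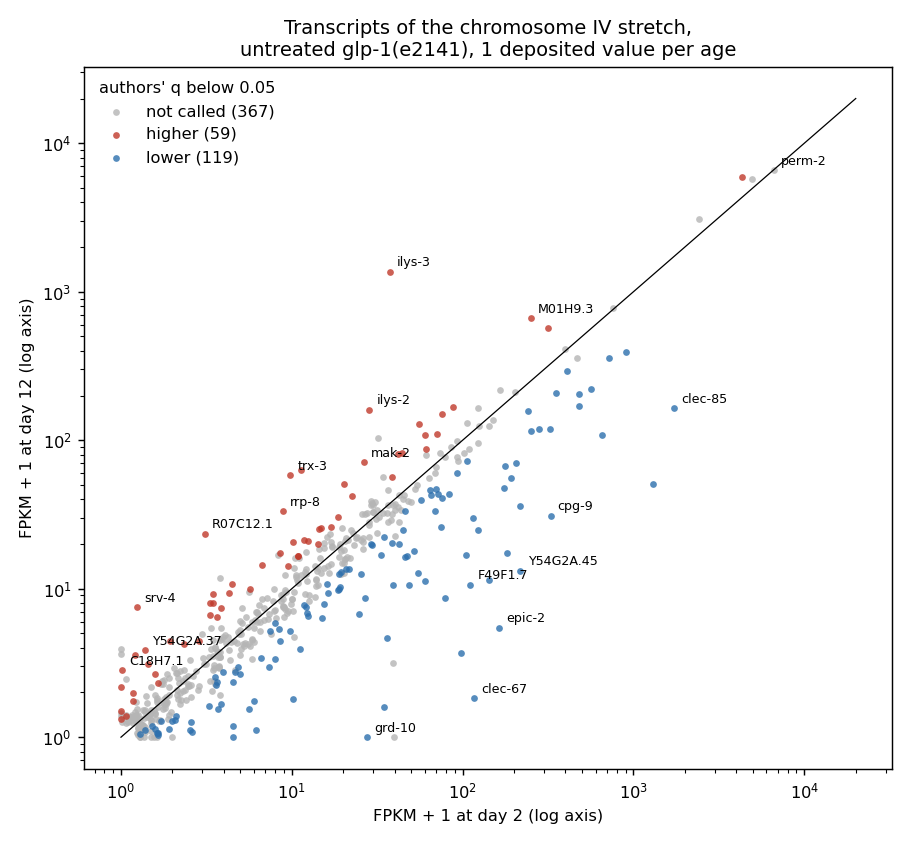
Level of each of the 545 members at day 2 (horizontal) and day 12 (vertical) in untreated glp-1(e2141), as FPKM + 1 on log axes, 1 point per transcript and 1 deposited value per age. The 59 members higher at day 12 lie above the line of equal levels with ilys-3 furthest from it, and the 119 lower members lie below it with clec-67 furthest.

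Lysozymes gave the largest rise. The invertebrate-type lysozyme gene ilys-3 was at 36.5 FPKM at day 2 and 1367 FPKM at day 12, 37.4-fold higher (q = 9.44e-21 in the authors' deposited table). Its neighbour ilys-2 was at 27.4 and 159.9 FPKM, 5.83-fold higher (q = 9.44e-21 in the authors' deposited table). Both were also high in L4440 animals at day 12, at 4053 and 6019 FPKM for ilys-3 and 1029 and 909 FPKM for ilys-2 in the 2 libraries, in a table that was normalized separately. Of the 6 members on the list of immune effectors, 3 are in the isoform table. The list's remaining measured member, the scramblase gene scrm-5, which is not known as an antimicrobial, was at 0.373 and 0.516 FPKM and was not called. Outside the isoform table, the lysozyme gene ilys-6 stood at 2.88 and 6.90 FPKM in L4440 animals and ilys-1 was listed at 0 in both libraries.

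Called C-type lectins mostly fell. The list has 31 transcripts of 29 genes, 19 of them in the isoform table, of which 11 fell (57.9%, against 18.8% of all transcripts in the table), 1 rose (5.26%, against 13.4%) and 7 were not called. The median change of the list was -0.67, against -0.05 over all transcripts. The gene clec-67 had the largest fall of all members, from 116 FPKM at day 2 to 0.822 at day 12, 141-fold lower (q = 9.44e-21 in the authors' deposited table). In the L4440 day 12 libraries it stood at 3.54 and 3.37 FPKM, above its untreated day 12 value and far below its day 2 value. The lectin most abundant at day 2, clec-85, fell from 1717 to 163 FPKM, 10.5-fold, and stood at 135 and 155 FPKM in L4440 animals (q = 9.44e-21 in the authors' deposited table).

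Other lectins differed in how far they fell and in their L4440 level. The genes clec-84 and clec-83 fell from 325 to 117 FPKM and from 481 to 205 FPKM in untreated animals. In L4440 animals at day 12 they were at 288 and 294 FPKM and at 547 and 445 FPKM, values on the scale of the other table. The low genes clec-172 and clec-72 fell from 9.15 to 0.813 and from 5.17 to 0.121 FPKM, and both were listed at 0 in the L4440 day 12 libraries. The single riser was clec-76, at 7.53 and 16.3 FPKM, 2.16-fold higher (q = 1.26e-06 in the authors' deposited table), which stood at 7.26 and 6.26 FPKM in L4440 animals. The abundant clec-173 was at 466 and 356 FPKM and was not called. Of the 31 lectin transcripts 15 reached 1 FPKM in both L4440 day 12 libraries and 14 were listed at 0 in both. Lectin genes of one cluster resemble each other, so single members are uncertain.

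**Figure D2:**
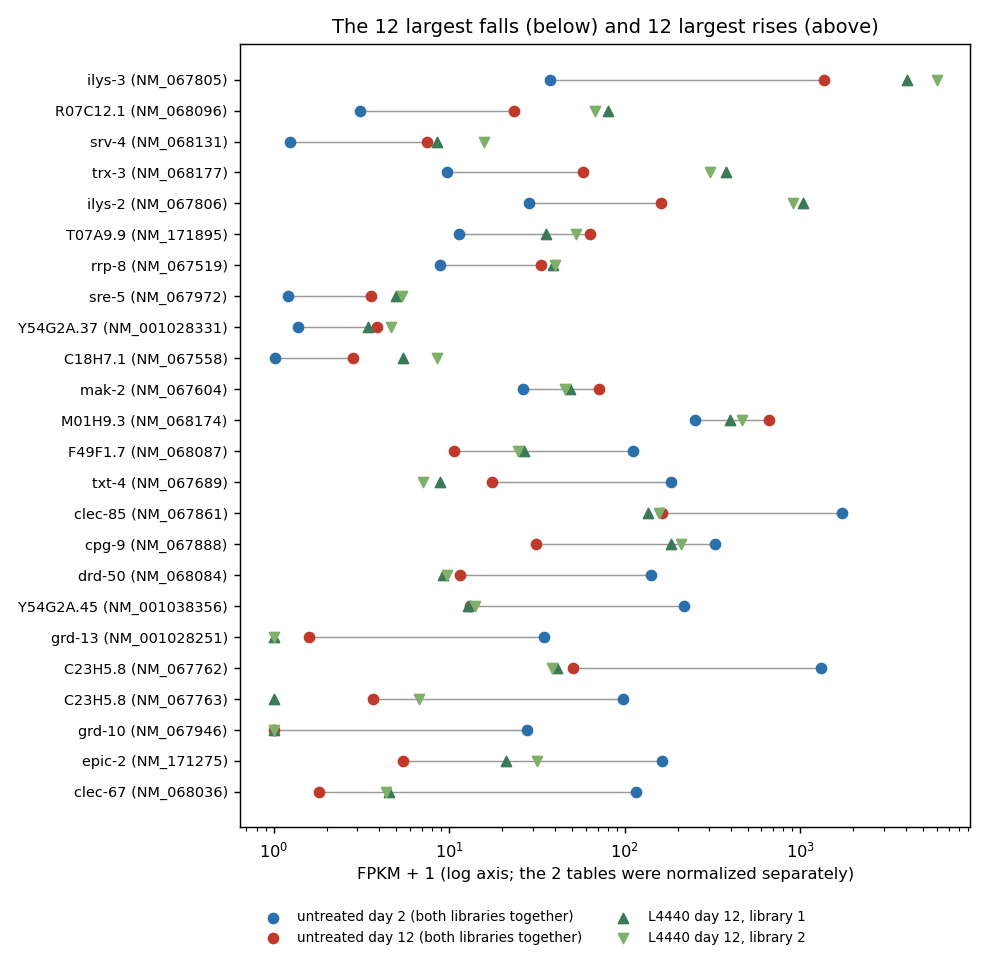
FPKM + 1 (log axis) of the 12 largest rises and 12 largest falls among called members in untreated glp-1(e2141) at day 2 and day 12, and in each L4440 day 12 library, with a line joining the 2 ages. The L4440 values lie at or beyond the day 12 value for ilys-3, ilys-2, trx-3, srv-4 and R07C12.1, whereas for cpg-9 both stand nearer to day 2.

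Other large rises were in genes of redox, RNA and kinase function and in uncharacterised genes. The thioredoxin gene trx-3 rose from 8.76 to 57 FPKM, 6.5-fold (q = 9.44e-21 in the authors' deposited table), and stood at 377 and 306 FPKM in the L4440 day 12 libraries. R07C12.1 rose 10.7-fold, from 2.10 to 22.5 FPKM, with 79.3 and 66.2 FPKM in L4440 animals. On the detoxification list trx-3 was the only called of 5 transcripts (20% higher, against 13.4% of all transcripts). The other 4 were ugt-45 at 9.06 and 7.53 FPKM, ugt-52 at 7.87 and 8.20, the glutathione S-transferase gene gst-40 at 4.51 and 4.48, and the cytochrome P450 gene cyp-25A5 at 0.164 and 0.300 FPKM. The gene rrp-8, named for processing of ribosomal RNA, rose from 7.89 to 32.4 FPKM with 37.8 and 38.8 FPKM in L4440 animals. The kinase gene mak-2 rose from 25.3 to 70.2 FPKM, and its L4440 values of 47.9 and 44.6 FPKM lay between those ages. M01H9.3 (NM_068174) likewise rose from 249 to 662 FPKM and stood between the ages in L4440 animals, at 395 and 463 FPKM. C18H7.1, at 0.0192 and 1.82 FPKM, and Y54G2A.37, at 0.375 and 2.86 FPKM, rose from levels near 0.

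Signalling kinases of the stress-activated JNK type rose moderately. The gene kgb-1 rose from 59.6 to 85.7 FPKM (q = 0.0127 in the authors' deposited table) and kgb-2 from 21.5 to 41.0 FPKM (q = 1.69e-05 in the authors' deposited table). In L4440 animals at day 12 they stood at 174 and 150 FPKM and at 31 and 39 FPKM. The other 2 members on the list of kinases, cmk-1 (3.43 and 3.39 FPKM) and cdc-73 (6.76 and 7.21 FPKM), were not called. The latter is known as a partner of RNA polymerase II, not as a kinase. Of 4 transcripts on that list 2 rose (50%, against 13.4% of all transcripts), too few for a result about kinases. Set by name, the list left out the protein kinase gene egl-4, picked after its values were seen. Its called transcript fell from 73.9 to 25.1 FPKM (q = 0.00512 in the authors' deposited table). Over 6 transcripts egl-4 summed to 190 FPKM at day 2, 98.2 at day 12 and 227 and 239 in L4440 animals. On the list of longevity signalling, which also holds the kgb genes, 2 of 7 transcripts rose (28.6%, against 13.4% of all transcripts). On it 1 fell (14.3%, against 18.8%). With 4 of the 7 from hlh-30, this is no result about the list as a group. The faller was nsy-4, a claudin-like gene of neuronal signalling, at 11.3 and 5.82 FPKM. None of 4 measured transcripts of hlh-30, a homologue of the autophagy regulator TFEB, was called, and their sum was 75.7 FPKM at day 2, 69.1 at day 12 and 138 and 163 over all 7 transcripts in L4440 animals. The lipid phosphatase gene daf-18, which opposes insulin signalling, is not in the isoform table and stood at 7.88 and 7.52 FPKM in L4440 animals.

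Nuclear hormone receptors are ligand-regulated transcription factors. Of 11 measured members 4 rose (36.4%, against 13.4% of all transcripts), 0 fell (against 18.8%) and 7 were not called, with a median change of 0.07. The 4 were nhr-122 (16.1 and 24.9 FPKM at day 2 and day 12), nhr-92 (17.7 and 29.2), nhr-146 (13.2 and 18.9) and nhr-287 (2.31 and 5.62). The most abundant receptor, nhr-76, was at 84.7 and 88.9 FPKM and was not called, with 152 FPKM in each L4440 library. On the list of other transcription factors 3 of 9 transcripts fell (33.3%, against 18.8% of all) and 0 rose. Of those 9, 4 are transcripts of hlh-30, so the share rests on few genes and is no result about transcription factors as a group. Of the fallers, a pair are of DNA-binding families, lin-22 (2.72 and 0.549 FPKM) and zip-11 (5.62 and 2.42 FPKM). The other, vab-2 (3.87 and 1.98 FPKM), encodes an ephrin, a ligand at the cell surface, which the name pattern of the list took in.

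Chemoreceptor genes were mostly unmeasured or near 0. Of 23 members 6 are in the isoform table, of which 3 rose (50%, against 13.4% of all transcripts) and 0 fell (against 18.8%). These are too few transcripts for a result about chemoreceptors as a group. Of the 23 members 19 were listed at 0 in both L4440 day 12 libraries. The serpentine receptor genes srv-4 and sre-5 rose from 0.243 to 6.47 FPKM and from 0.201 to 2.57 FPKM (q = 5.04e-14 and 3.02e-09 in the authors' deposited table). They stood at 7.54 and 14.8 FPKM and at 3.95 and 4.39 FPKM in L4440 animals. The remaining riser, srt-24, was listed at 0 at day 2 and at 0.335 FPKM at day 12. Of 14 F-box and related genes 12 were listed at 0 in both L4440 day 12 libraries. Of 4 measured with age only fbxb-75, under 1 FPKM at both ages, was called (25% higher, against 13.4% of all transcripts). The more abundant skr-18, of the Skp1 family that pairs with F-box proteins, was at 41.3 and 42 FPKM.

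Of 15 measured neuronal transcripts 4 fell (26.7%, against 18.8% of all transcripts), 0 rose (against 13.4%) and 11 were not called, with a median change of -0.37. A share this near the background from 15 transcripts is no result about neuronal genes as a group. The fallers were the potassium channel gene kvs-5 (2.87 and 0.660 FPKM at day 2 and day 12), the GABA-B receptor gene gbb-2 (8.77 and 4.22), the vesicular acetylcholine transporter gene unc-17 (3.68 and 1.76) and the ion channel gene lgc-33 (2.65 and 1.35). In L4440 animals at day 12 none of the 4 was below its untreated day 12 value, with 3.38 and 6.42 FPKM for unc-17 and 11.7 and 11.6 FPKM for gbb-2. These values were normalized separately and were higher over the members in general, with a median difference of 0.68 (log2). They therefore do not tell whether the 4 genes fell in L4440 animals. The choline acetyltransferase gene cha-1, which shares its locus with unc-17, was at 2.49 and 1.38 FPKM and was not called. All are low transcripts, and their part of whole-animal mRNA is small.

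The hedgehog-related genes grd-10 and grd-13 went from 26.7 FPKM to a listed 0 and from 33.5 to 0.588 FPKM (q = 9.44e-21 for each in the authors' deposited table). Both were listed at 0 in both L4440 day 12 libraries. Of 6 measured transcripts of that list 3 fell (50%, against 18.8% of all transcripts) and 0 rose, the last being grl-20 at 0.911 and 0.141 FPKM, while the abundant wrt-5 transcript was at 78.3 and 76.0 FPKM. Of 5 measured cuticle transcripts 4 fell (80%, against 18.8% of all transcripts) and 0 rose, all from under 20 FPKM, among them col-107 (NM_182305, 4.98 and 0.756 FPKM), dpy-13 (1.61 and 0.0781 FPKM) and cutl-26 (18.3 and 9.31 FPKM). The collagen gene col-106 is not in the isoform table and was the highest of the cuticle list in L4440 animals, at 865 and 789 FPKM. Near-identical collagens may have exchanged reads, which leaves single members uncertain.

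Several metabolic enzyme genes also fell. The pyruvate dehydrogenase gene pdhb-1 fell from 121 to 24.04 FPKM and stood at 57.4 and 64.6 FPKM in L4440 animals (q = 9.44e-21 in the authors' deposited table). The D-amino acid oxidase gene daao-1 fell from 77.8 to 7.67 FPKM, the enoyl-CoA hydratase gene ech-5 from 44.7 to 15.3, the transaldolase gene tald-1 from 177 to 66.5 and the complex I gene ndua-12 from 250.0 to 115 FPKM. These are single members, and apart from ech-5 they were on no list and were picked after their values were seen. Of 5 transcripts of the mitochondrial ribosome and oxidative phosphorylation list 2 fell (40%, against 18.8% of all transcripts) and 0 rose, too few for a group result. The fallers were mrpl-2 (17.7 and 8.77 FPKM) and the cytochrome oxidase assembly gene cox-18 (11.2 and 6.52 FPKM). The other 3, mrps-25 (30.4 and 22.9 FPKM), mrpl-46 (7.84 and 6.58) and mrpl-55 (35.6 at both ages), are ribosomal subunit genes and were not called. The sphingosine phosphate lyase gene spl-1, first in position, fell from 113 to 28.7 FPKM with 43.9 and 47.3 FPKM in L4440 animals. The member listed last, ZK180.6, was at 0.288 and 0.0507 FPKM and also fell.

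The 2 vacuolar ATPase genes of the stretch fell while its autophagy genes were not called. On their joint list 2 of 6 transcripts fell (33.3%, against 18.8% of all transcripts), too few for a result about the group. The subunit gene vha-11 fell from 204 to 69.4 FPKM and vha-19 from 280.5 to 118 FPKM (q = 1.46e-08 and 4.09e-10 in the authors' deposited table). Their L4440 day 12 levels of 179 and 189 FPKM and of 254 and 270 FPKM were nearer to the untreated day 2 values. The autophagy gene atg-3 was at 28.8 and 32.0 FPKM, and the 3 transcripts of epg-9 summed to 50.5 and 61.8 FPKM.

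Few transcripts were called on the lists of protein synthesis and turnover, which are small and set by name. Called genes of this kind also lay outside the lists. Among them, picked after their values were seen, were the ubiquitin ligase genes siah-1, which rose from 43.1 to 81.0 FPKM, and eel-1, which fell from 43.8 to 23.8 FPKM. Of 5 ribosomal protein transcripts 1 is rpl-15, whose isoform table level is set aside below, and of the others only rps-28 was called, at 4343 FPKM at day 2 and 5960 at day 12, 1.37-fold higher (q = 0.0409 in the authors' deposited table). In L4440 animals it stood at 13522 and 15445 FPKM. The gene rps-24 was at 2409 and 3103 FPKM and the main transcript of rpl-7A (NM_171316) at 762 and 773 FPKM, and neither was called. The second rpl-7A transcript (NM_171904) was listed at 0 and at 2.93 FPKM and stood at 354 and 394 FPKM in L4440 animals. Transcripts of the lists for proteasome and ubiquitin (4), histones and histone methylation (6), chaperones (2) and small RNA pathways (2) were not called in either direction. The H2A variant gene htz-1 was at 22.7 and 21.0 FPKM and the proteasome gene pbs-1 at 108 and 86.8 FPKM. The ubiquitin-conjugating enzyme genes ubc-1 (44.1 and 41.8 FPKM), ubc-8 (72.6 and 80.8) and ubc-13 (60.1 and 78.5) were not called. The chaperonin subunit gene cct-8 was at 22.1 and 18.6 FPKM and dnj-15, of the DnaJ family, at 25.2 and 19.8 FPKM. Of the RNA interference genes, eri-1 was at 3.84 and 4.12 FPKM (NM_171244) and eri-5 at 0.762 and 1.28 FPKM, and a second eri-1 transcript outside the isoform table stood at 2.56 and 4.07 FPKM in L4440 animals. Of 4 transcripts for translation and splicing 1 fell (25%, against 18.8% of all transcripts). It was sars-2, a tRNA synthetase gene, at 28.6 and 18.6 FPKM. The synthetase gene ears-2 (20.8 and 15.0 FPKM) was not called. Neither were the 2 transcripts listed as hrp-1, an RNA-binding protein gene (9.34 and 3.72 FPKM, and 0.857 and 0.715 FPKM). These 2 summed to 4.44 FPKM at untreated day 12 against 111 and 113 FPKM in L4440 animals, so their isoform table level is uncertain. The RNA polymerase II gene ama-1, on no list and picked after its values were seen, fell from 15.0 to 9.81 FPKM. Of 6 measured transcripts on the list of ion channels, pumps and transporters, only the metal transporter gene smf-3 was called, at 8.50 and 13.1 FPKM. Set by name, that list left out called genes of this kind. Among them, picked after their values were seen, were aat-8, which rose, and cng-4, which fell. The channel genes kvs-5 and lgc-33, which fell, were counted with the neuronal transcripts. The transthyretin-related ttr-20 rose from 5.67 to 13.4 FPKM.

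**Figure D3:**
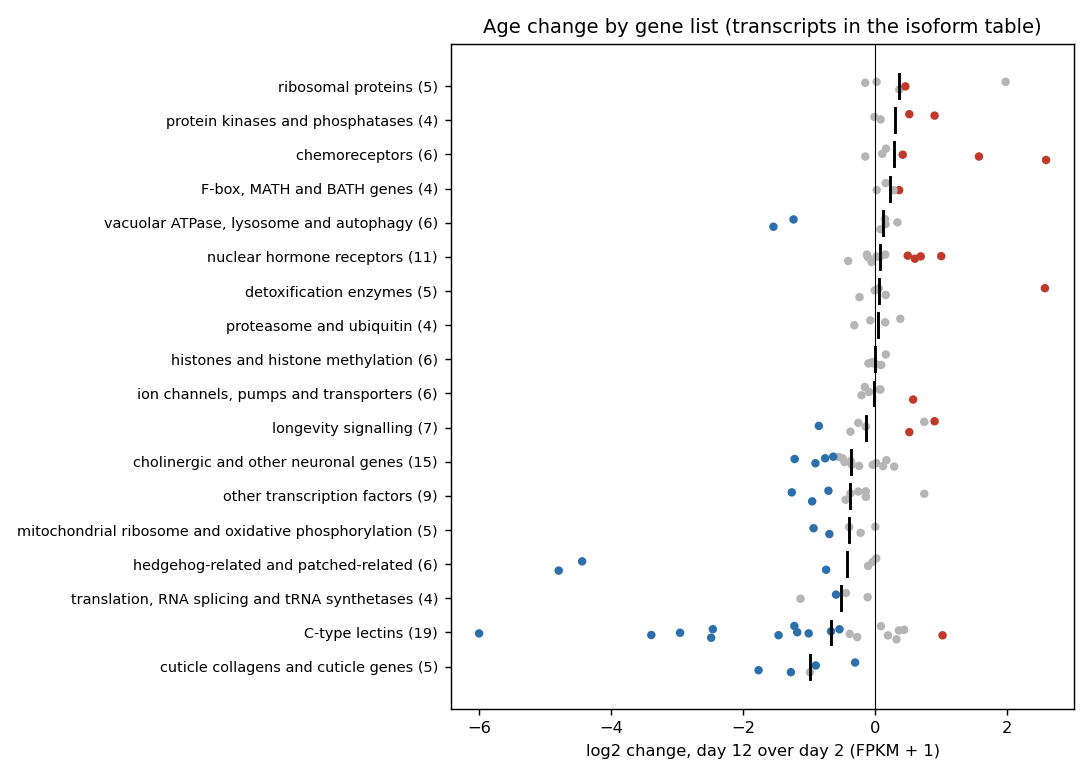
Change from day 2 to day 12 in untreated glp-1(e2141), log2(FPKM + 1), of members on each gene list with at least 4 transcripts in the isoform table (number in brackets). Red points rose, blue points fell, grey points were not called, and black bars are medians, which run from -0.99 for cuticle genes and -0.67 for C-type lectins to 0.37 for ribosomal proteins, rpl-15 included.

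Markers of the germline and of sperm were few in the stretch. The chondroitin proteoglycan gene cpg-9 fell from 326 to 30.0 FPKM, 10.8-fold, but stood at 183 and 207 FPKM in L4440 animals. The other member on that list, cpg-24, was at 0.922 and 1.50 FPKM and was not called. The sperm gene spe-40 is not in the isoform table and was at 0.808 and 0 FPKM in the L4440 libraries. No muscle gene of the lists lies in the stretch. The genes perm-2 and perm-4, named for the permeability of the eggshell, were among the 3 most abundant members in untreated animals, at 6656 and 6557 FPKM and at 4964 and 5750 FPKM at the 2 ages, and were not called.

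Further large falls were in genes of little known function. The gene epic-2 fell from 162 to 4.48 FPKM, with 20.1 and 30.8 FPKM in L4440 animals. Both called transcripts of C23H5.8 fell, NM_067762 from 1309 to 49.5 FPKM and NM_067763 from 96.4 to 2.67 FPKM. Their gene stood at 40.0 and 43.3 FPKM summed over its transcripts in L4440 animals. Y54G2A.45 fell from 217 to 12.2 FPKM, with 11.9 and 13.1 FPKM in L4440 animals. The genes drd-50, F49F1.7 and txt-4 fell from 141 to 10.5, from 110 to 9.63 and from 182 to 16.5 FPKM. In the L4440 libraries drd-50 and txt-4 were lower still, at 8.21 and 8.77 FPKM and at 7.83 and 6.11 FPKM, and F49F1.7 was at 25.5 and 23.6 FPKM. Of the 250 members in the isoform table named only by a clone or accession, 28 rose (11.2%) and 52 fell (20.8%), shares near those of all members and of the whole table.

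Some called genes lay in runs that moved the same way. Ordering by RefSeq position placed 324 of the 489 measured genes, 45 higher and 93 lower at day 12, taking 1 transcript per gene. All 324 reached 1 FPKM at one age or more, and genes below that or without a RefSeq position were left out. Neighbours and runs are therefore those among the placed genes, and other measured genes, some of them called, can lie between them. Of 75 neighbouring pairs with both genes called, 51 moved in the same direction (68%), against 123 of 193 pairs (63.7%) on the rest of chromosome IV. Among placed genes the longest run was 5, F38A1.9, clec-165, clec-166, F38A1.6 and clec-170, all lower, with changes from -2.96 to -0.54. The measured genes F38A1.11 and F38A1.15, under 1 FPKM and not called, were not placed. Runs of 4 lower genes were F37C4.6 with clec-67, clec-174 and clec-72, pdhb-1 with grd-13, grd-10 and F09D12.2, and drd-50 with F49F1.5, mul-1 and F49F1.7. The genes vha-11, nsy-4, ppgn-1 and trap-3 formed another, as did pqn-75 with C35B1.8, C35B1.4 and C35B1.5, prmt-6 with test-1, C54E4.5 and C54E4.4, and col-107 with tag-244, Y41D4B.17 and hpo-6. Runs of higher genes were shorter, among them nhr-122, nhr-92 and nhr-146, srv-4 with F15E6.5 and F15E6.10, and the pair ilys-3 and ilys-2. Neighbours can share reads where genes overlap, and the strandedness of the counting is not given. Split by rank into 5 parts of near equal size, the stretch had more lower than higher genes in each, from 14 against 11 of 65 in the opening part to 22 against 7 of 64 in the middle.

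**Figure D4:**
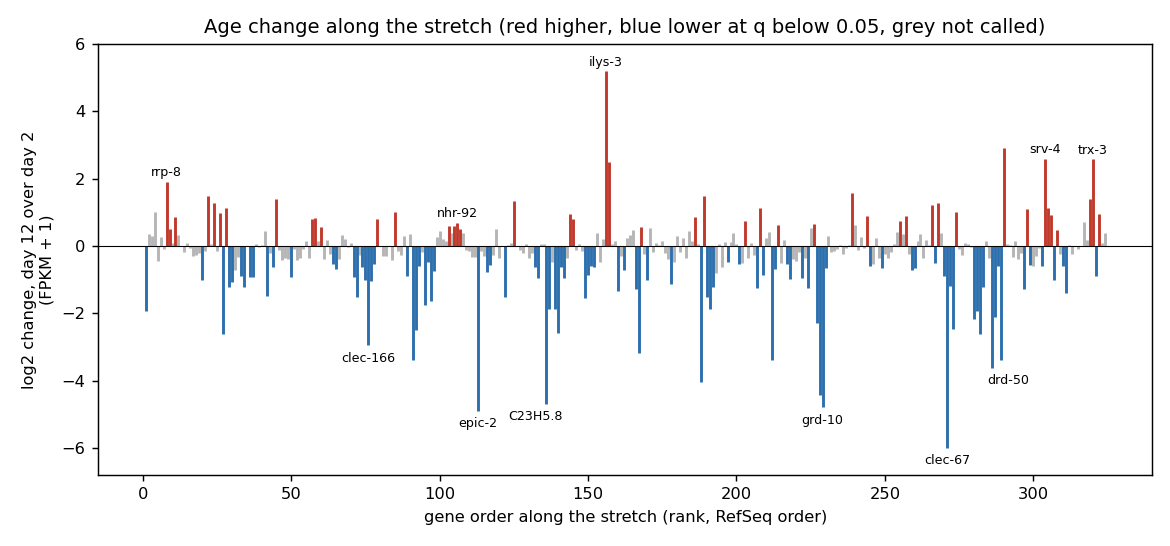
Change from day 2 to day 12, log2(FPKM + 1), of 324 genes in their order along the stretch (horizontal axis, rank), 1 transcript per gene in untreated glp-1(e2141). Genes without a RefSeq position or under 1 FPKM at both ages are left out. Red genes rose, blue genes fell and grey genes were not called; the 45 higher and 93 lower genes are spread over the whole stretch, with the deepest falls at clec-67, epic-2 and grd-10.

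Levels with a spread between libraries come from the L4440 animals at day 12. The total number of reads is unknown, and steps between low values put the reads of library 2 at 0.338 of those of library 1, the commonest ratio in 281 of 2499 transcripts. Of the 1077 members 493 reached 1 FPKM in both libraries (45.8%, against 32.2% of all transcripts), 41 were above 0 in library 1 only, 48 in library 2 only and 472 in neither. Among coding members the share was 485 of 842 (57.6%, against 56% of all coding transcripts). It was 397 of 545 (72.8%) for those in the isoform table and 88 of 297 (29.6%) for those outside it. The median level of the detected members was 25.3 FPKM as a mean of both libraries, and that of other detected transcripts was 18.7 FPKM. The members made up 5.26% and 5.12% of the summed FPKM of the 2 libraries, with 2.29% of the transcripts. Coding transcripts are a larger part of the members than of the whole. The coding members, 842 of 25913 coding transcripts, made up 4.8% and 4.85% of the summed coding FPKM. In the isoform table the members made up 3.65% of the summed FPKM at day 2 and 3.78% at day 12, with 3.32% of the transcripts.

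Both libraries gave like levels for most members. Over the 493 detected members the median difference of library 2 from library 1 was 0.03 (log2), and the middle 80% lay between -0.36 and 0.58, against -0.54 and 0.63 for other transcripts. The 2 libraries were within 1.5-fold for 408 of the 493 and over 2-fold apart for 32. Across these members, which share libraries and normalization, Spearman's rho was 0.97. Of the called members, C35B1.4 (98.7 and 237 FPKM), the ubiquitin ligase gene eel-1 (42.3 and 132) and xbx-4 (5.79 and 12.8) were over 2-fold apart.

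**Figure D5:**
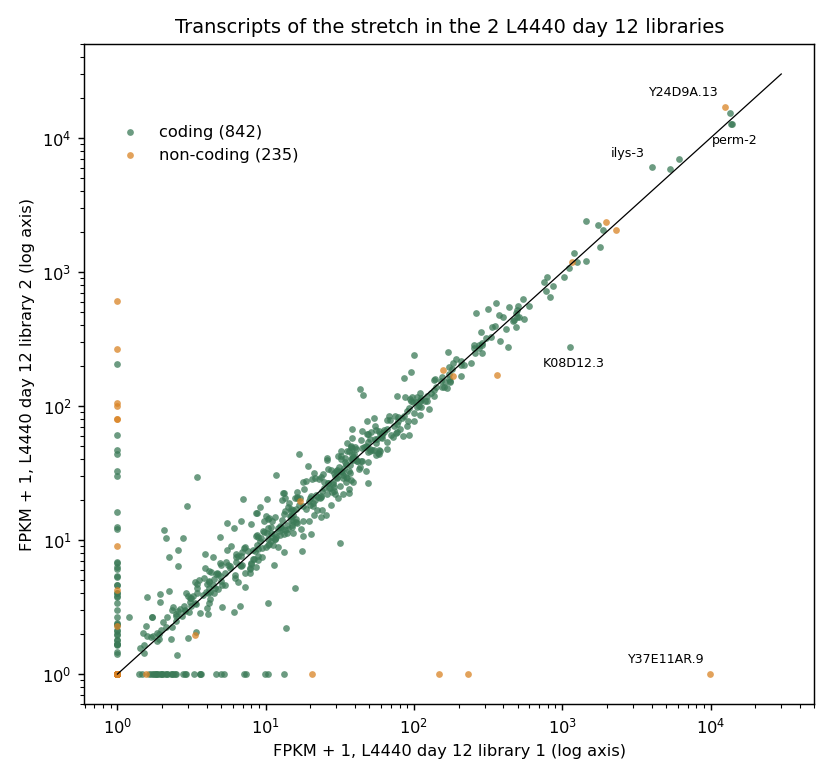
FPKM + 1 of all 1077 members in library 1 and library 2 of L4440 animals at day 12, on log axes, 842 coding and 235 non-coding transcripts. Most of the 493 members detected in both lie along the line of equal levels, and points on the axes were listed at 0 in 1 library, among them Y37E11AR.9 at 9981 FPKM in library 1.

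The highest coding members of L4440 animals were eggshell, ribosomal and lysozyme genes. The genes perm-2 and perm-4 stood at 13872 and 12613 FPKM and at 13770 and 12724 FPKM. With rps-28 they were followed by rps-24 (6167 and 6926 FPKM), rpl-15 (5321 and 5910 FPKM) and ilys-3. Coding members outside the isoform table reached high levels as well, with 1444 and 2412 FPKM for dct-8, 1449 and 1204 for the translocon gene sec-61.B, 1107 and 1069 for ost-1, the worm osteonectin, and 783 and 918 for mai-2, a mitochondrial ATPase inhibitor gene. These 4 were picked after their values were seen.

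Of 235 non-coding members 8 reached 1 FPKM in both libraries (3.4%, against 2.89% of all non-coding transcripts) and 212 were listed at 0 in both. The highest was the ncRNA Y24D9A.13, at 12541 and 16949 FPKM, a transcript of 61 bases by RefSeq that overlaps the coding gene ell-1. The snoRNA Y24D9A.10 (2294 and 2071 FPKM) and the ncRNA Y24D9A.11 (1967 and 2362 FPKM) overlap rpl-7A. Their reads cannot be told apart from those of the coding genes. The 64-base ncRNA Y37E11AR.9 was at 9981 FPKM in library 1 and listed at 0 in library 2, the widest gap of any member, and a short length makes FPKM large for few reads. The lncRNA linc-21, with no overlapping coding gene in RefSeq, stood at 182 and 167 FPKM.

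L4440 animals at day 12 were set beside untreated animals of the same age, in tables normalized separately. The median difference was 0.68 (log2) over members in both and 0.40 over 14780 other transcripts. Across members Spearman's rho was 0.843 with untreated day 12 and 0.765 with untreated day 2, and across the others 0.86 with day 12, given as a description since transcripts are not replicates. By more than 8-fold, 19 members were higher in L4440 animals (3.49%, against 2.18% of the 15330 transcripts in both tables) and 6 lower (1.1%, against 1.51%). Furthest above were rpl-15 (1.23 FPKM in untreated animals), T07A9.9 (NM_001028194, 2.62 FPKM against 1800 and 1541), K08D12.3 (NM_171274, 3.51 against 1135 and 273), Y69A2AR.18 (NM_067812, listed at 0 against 157 and 138) and Y54G2A.11 (NM_001028318, 1.27 against 283 and 357). Furthest below were transcripts of chat-1 (124 FPKM in untreated animals), epg-9 (45), K08D10.10 (35.4) and C54E4.2 (9.66), all listed at 0 in both L4440 libraries, and dml-1 (32.9 FPKM against 1.88 and 2.01).

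Several of these gaps lie between transcripts of one gene. The sum over 3 transcripts of chat-1 was 590 and 576 FPKM in the L4440 libraries and 160 FPKM over the 2 in the isoform table at day 12. Over 3 transcripts of epg-9 the sums were 149 and 157 FPKM against 61.8 FPKM. The gene T07A9.9 rose with age in its transcript NM_171895, from 10.3 to 62.1 FPKM, which stood at 34.3 and 51.6 FPKM in L4440 animals. Its transcript NM_001028194 stood far higher there, at 1800 and 1541 FPKM. The day 12 level of rpl-15 in the isoform table is low for a ribosomal protein gene beside its 5321 and 5910 FPKM in L4440 animals, and no age change of it is read from that table.

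For each called member that reached 1 FPKM the L4440 day 12 level was compared with the untreated day 2 and day 12 levels, after removing an offset of 0.48 (log2) taken from 6590 other transcripts that changed little. It was nearer to day 12 for 42 of 54 members that rose (77.8%, against 71.9% of 1826 other risers) and for 73 of 109 that fell (67%, against 75.6% of 2606 other fallers). The offset holds no members, whose median difference between the tables was larger, 0.68 against 0.40 over other transcripts. A shift left in the members would place more risers near day 12 and more fallers near day 2. Its part in these shares was not tested. Members that fell but were nearer to day 2 in L4440 animals included cpg-9, vha-11, vha-19, ech-5, clec-83, clec-84, unc-17, gbb-2, ama-1 and spl-3, a second sphingosine phosphate lyase gene. Risers nearer to day 2 included mak-2, M01H9.3, kgb-2, nhr-92 and clec-76. Why single members differ between the experiments was not tested.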

How the data were processed

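Poly-A selected mRNA of whole animals was sequenced. The tools named, per the submitters' processing notes, are Cuffdiff, TopHat, TopHat2, BWA and CASAVA 1.8, with no order or role. The authors deposited FPKM values, 1 per age for both libraries together in the isoform, control and mutant tables, as named per the file headers. Another table, of RNA interference, deposited by the authors with 1 value per library, names no unit and was taken as FPKM. The log2 fold change and the q-value of the isoform table were deposited by the authors, and no source used here names the test behind the q-value. The sources used here give no genome build, strandedness or scaling.

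Members were selected by status and locus. All 1077 share 1 locus entry. Names came from RefSeq (assembly WBcel235) for 853 members and from the isoform table for 135, and 89 have none. Of those 853, 824 were on chromosome IV and 29, all non-coding, on another. RefSeq served only for names, order and overlap, and no sequence is printed. The members and gene lists were chosen with earlier results of these data known. Groups and ages came from the sample titles. Unused columns of per-sample values numbered 0. No test was run, since the isoform table has 1 value per age. Calls use a q-value below 0.05. Changes are log2(FPKM + 1), which understates change in low transcripts, and detection means 1 FPKM in both libraries. Named were the 12 largest rises and falls among called members with at least 1 FPKM, the 10 highest and the 5 furthest each way in L4440 animals, the first and last by position, and list members, singly in lists of 5 or fewer that reached 1 FPKM and as counts with examples otherwise. The steps were checked on simulated data. Python 3.11.15, pandas 2.3.3, numpy 2.4.6 and matplotlib 3.10.9 were used.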

Additional observations from a re-analysis of the deposited data

How the results depend on the processing

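No paired analysis was possible because the age values are 1 per age for both libraries together and carry no replicate number, and the L4440 values form 1 group. Requiring a 2-fold change as well left 35 members higher (59 without it) and 83 lower (119). A q-value limit of 0.01 left 44 and 89, a minimum of 1 FPKM left 54 and 109, and 1 transcript per symbol left 57 and 117. The median change with age of -0.13 was -0.18 with a pseudocount of 0.1, -0.15 with a minimum of 1 FPKM and -0.072 relative to the median of all transcripts. The median L4440 level of 25.3 FPKM was 25.4 to 25.5 with 1 library left out. Detected members numbered 511, 399 and 516 with minima of 0.5, 5 and above 0 FPKM, and 525 to 541 from 1 library. The difference between libraries of 0.03 was 0.0338 with a pseudocount of 0.1 and 0.042 relative to the other transcripts. The difference of L4440 from untreated animals at day 12 of 0.68 was 0.60 to 0.71 with 1 library left out, 0.79 with a pseudocount of 0.1 and 0.84 with a minimum of 1 FPKM in either table. Leaving out 1 library, a choice made after seeing the data for this comparison, gave 41 to 42 risers and 69 to 74 fallers nearer to day 12. The causes of these shifts were not tested. For the 24 largest changes, neither another pseudocount nor the median of all transcripts can turn the sign, so these alternatives say nothing of their stability.

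Depth is unknown in the isoform table, and its pooled values carry no spread. Low transcripts and those with several isoforms are the least certain.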
